A study of Mus musculus with 4 samples.

Results

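Embryonic stem cells that expressed constitutively active Akt and had been without leukemia inhibitory factor (LIF) were compared with control cells that had LIF, which asks how far active Akt stands in for LIF and which genes it does not hold at the level of LIF-fed cells. The members are 2 of the 4 arrays of the series, chosen by their titles, and all 12422 probe sets that are not array controls, out of 12488. The cells were mouse E14tg2a, a stem cell line that grows without feeder cells. The group called control with LIF received LIF at 3000 U/ml. The group called Akt without LIF is titled Akt12 LIF(-), carried constitutively active Akt and was sampled after 4 days without LIF. The other arrays hold control cells after 4 days without LIF and Akt cells with LIF at 3000 U/ml. The labels do not say whether an empty vector was put into the control cells, whether 12 names a clone, or which Akt form and promoter were introduced. The pair differs in line and in LIF together, so a value does not tell their parts apart, and each group is 1 array with no replicate of any culture.

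LIF is a cytokine that binds a receptor made of LIFR and gp130 (Il6st) and activates the kinase JAK1 and the transcription factor STAT3. In mouse embryonic stem cells STAT3 induces naive pluripotency factors such as Klf4 and Tfcp2l1 and its own feedback inhibitor Socs3. Akt is a kinase downstream of phosphoinositide 3-kinase that phosphorylates GSK3 and FOXO proteins, and its activity is known to help keep mouse stem cells undifferentiated.

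Values are normalized intensities, 1 per gene and array, with a floor of 15.8 under which no level is read. A gene counted as measured when it was above the floor on either array of the pair, and as different when the intensities were at least 2-fold apart. For a gene at the floor on 1 of the arrays the fold is a lower limit and is given with the words at least. Log2 differences are Akt without LIF minus control with LIF unless another pair is named. Among 1021 genes with several measured probe sets, the log2 differences of probe sets spread around the gene's mean with an SD of 0.37, which covers probe sets and not cultures. In both groups 12 of 13 stem cell markers were above the floor. The remaining marker, Esrrb, was at the floor on all 4 arrays. Control without LIF had 11 of the 13 above the floor, so this count separates the arrays little. The markers summed to 11455 in control with LIF and 7911 in Akt without LIF. The sums were 4212 in control without LIF and 12502 in Akt with LIF. As a sign of RNA quality, the ratio of the 3' to the 5' actin probe set was 2.33 in control with LIF and 2.48 in Akt without LIF, and the Gapdh ratio was 3.03 and 2.46. The part of RNA quality in the results was not tested.

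Of 5922 measured genes, 110 were at least 2-fold higher and 113 at least 2-fold lower in Akt cells without LIF than in control cells with LIF. These are 1.86% and 1.91% of the measured genes, or 3.77% together. The counts depend on the scale and the floor: they were 33 and 681 on the values as deposited, 359 and 358 with the floor at the 20th percentile and 37 and 53 with it at the 60th. Another 5063 genes, 85.5%, lay within 1.5-fold. Differences of 4-fold or more were seen in 22 genes, 8 higher and 14 lower. Of the genes 2-fold higher, 78 were above the floor on both arrays and 32 were known only to this limit, and of those lower the numbers were 83 and 30. The share of 2-fold different genes was 6.08% in the lowest quartile of mean intensity (15.8 to 36.0) and 1.82% in the highest (214 to 4545).

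**Figure D1:**
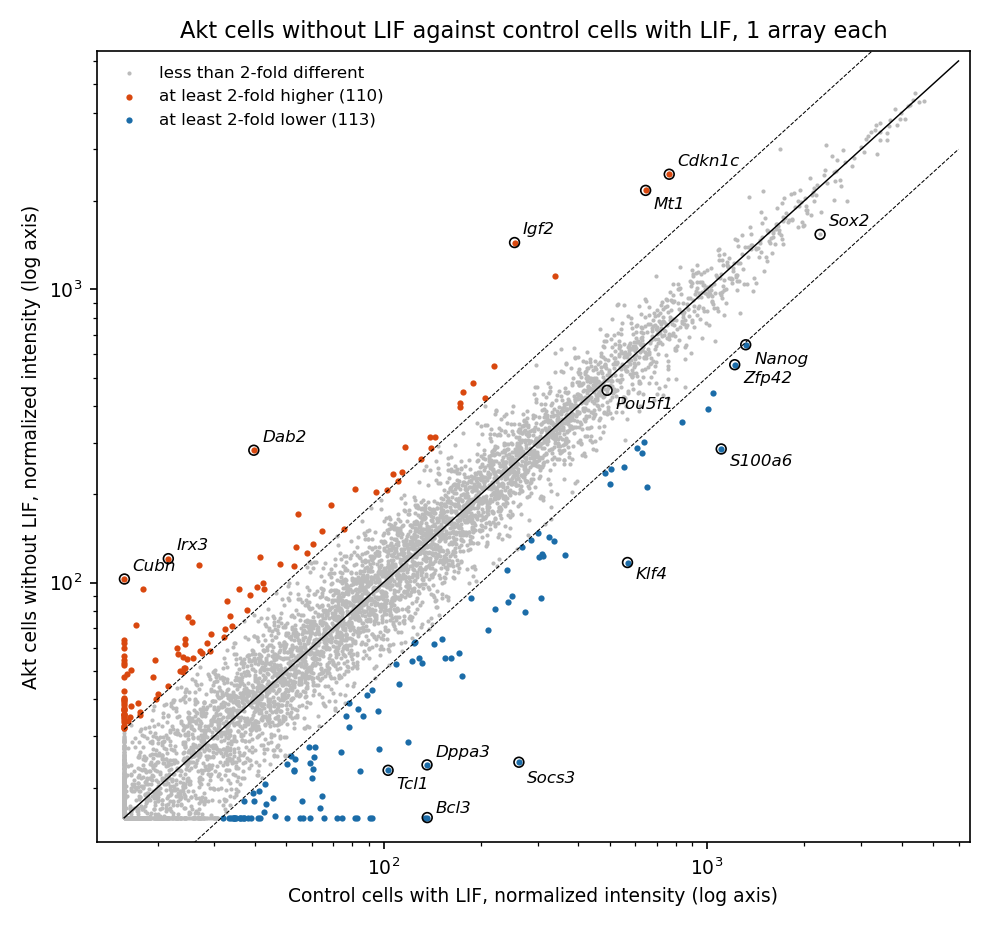
Normalized intensity of each measured gene in control cells with LIF (horizontal, log axis) and in Akt cells without LIF (vertical, log axis), 1 array each. The solid line marks equal levels and the dashed lines 2-fold; 110 genes lie above and 113 below the dashed lines, with Socs3, Bcl3, Klf4 and Dppa3 far below and Dab2, Cubn, Igf2 and Irx3 far above.

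The same count was larger in each of the other pairs of arrays. Control cells with and without LIF had 825 genes at least 2-fold apart, 13.8% of those measured, with 7.39% higher and 6.4% lower without LIF. Akt and control cells, both with LIF, had 424 (7.14%, with 3.5% higher and 3.64% lower in Akt cells). Akt cells without and with LIF had 396 (6.66%, with 3.01% higher and 3.65% lower without LIF). Between Akt and control cells without LIF there were 841 (14%, with 5.87% higher and 8.12% lower in Akt cells). Akt with LIF and control without LIF, which also differ in both line and LIF, had 1130 (18.7%, with 8.91% higher and 9.77% lower in Akt cells). The pairs share arrays with the comparison described here and are not independent of it, so the counts stand side by side only.

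**Figure D2:**
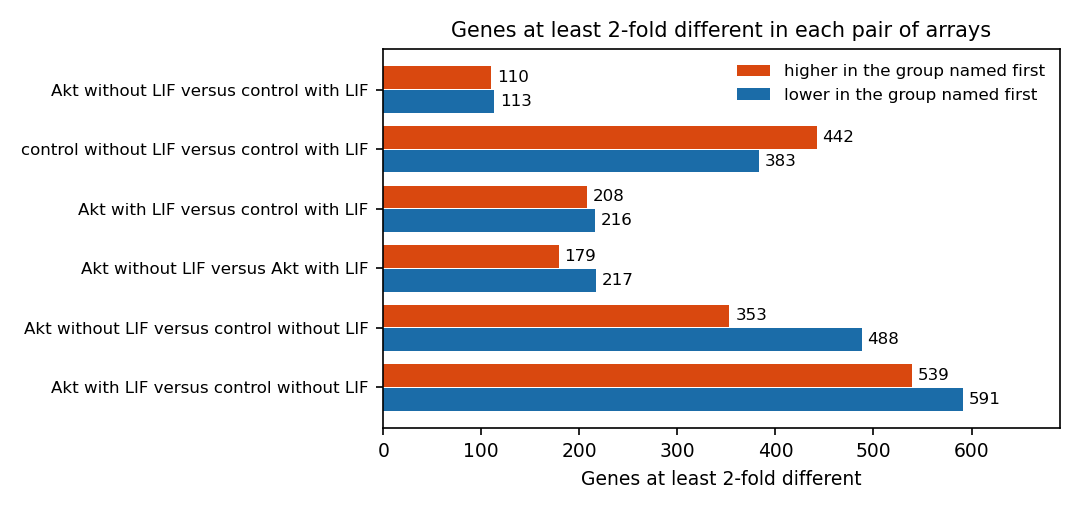
Number of genes at least 2-fold higher (red) or lower (blue) in the group named first, for each of the 6 pairs of arrays after quantile normalization. Akt without LIF versus control with LIF has the shortest bars, 110 and 113, and Akt with LIF versus control without LIF the longest, 539 and 591.

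A limma model with additive line and LIF effects was fitted to all 4 arrays, with 1 residual degree of freedom per gene plus 8.69 from the prior. Its contrast equals the plain difference of these arrays, and its error is the amount by which the LIF responses of the lines differ. At an adjusted p threshold of 0.05 limma called 0 of 6258 genes, while 159 (2.54%) had an unadjusted p under that value, 1.23% being higher and 1.31% lower. Fitted only on the 5027 genes that exceeded the floor on every array, limma called 7 genes, Socs3, Dppa3 and Klf4 lower and Dab2, Eef1a2, Igf2 and Irx3 higher. This error makes p large for genes whose LIF response differs by line. Mt1 is an example, with log2 differences after LIF withdrawal of -3.67 in control cells and -0.21 in Akt cells. A count of 0 calls therefore does not mean that no gene differed. The p-values rest on these 4 arrays and do not measure a spread between cultures.

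Socs3, which encodes the STAT3-induced inhibitor of LIF receptor signalling, was the most different gene above the floor on both arrays. Its intensity was 262.2 in control with LIF and 24.4 in Akt without LIF, 10.7-fold lower, with the lowest limma adjusted p of the fit at 0.191. It was 50.7 in control without LIF and 181.4 in Akt with LIF, so both arrays without LIF were low and Akt without LIF the lower. Its other probe set had a log2 difference of -2.51.

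The promoters of Socs3 and Irf1 are shown because, of the 7 LIF-STAT3 target genes at least 2-fold lower that have a promoter in the RefSeq table (GRCm38.p6), these are the 2 that hold the palindrome TTCNNNGAA bound by STAT proteins. The window runs from 250 bases before to 50 after the annotated start, and capitals mark the match, which lies at position -154 in Socs3 (chr11:117969317-117969616, minus strand) and at -90 in Irf1 (chr11:53769764-53770063, plus strand). Irf1 has another annotated start, whose window (chr11:53770223-53770522, plus strand) holds no match and is not shown.
Socs3: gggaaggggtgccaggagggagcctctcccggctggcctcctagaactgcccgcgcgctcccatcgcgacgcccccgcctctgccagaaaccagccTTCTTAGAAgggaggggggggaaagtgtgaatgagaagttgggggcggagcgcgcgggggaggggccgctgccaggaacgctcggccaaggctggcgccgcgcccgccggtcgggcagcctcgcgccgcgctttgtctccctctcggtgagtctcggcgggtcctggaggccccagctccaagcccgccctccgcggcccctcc
Irf1: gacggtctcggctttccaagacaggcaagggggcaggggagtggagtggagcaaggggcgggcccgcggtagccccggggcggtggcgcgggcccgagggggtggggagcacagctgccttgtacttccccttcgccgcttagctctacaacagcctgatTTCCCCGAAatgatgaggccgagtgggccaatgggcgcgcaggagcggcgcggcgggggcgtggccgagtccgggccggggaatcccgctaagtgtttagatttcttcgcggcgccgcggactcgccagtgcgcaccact
The motif reads the same on both strands, and a match is a description of the letters and not a bound site. It was present in 6.44% of the promoters of measured genes (396 of 6149). The share was 7.14% for genes 2-fold lower (9 of 126) and 3% for genes 2-fold higher (3 of 100). The FOXO motif GTAAACA, searched on both strands, was present in 2.54%, 4.76% and 5% of the same promoters, which is 156, 6 and 5 promoters.

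Among 24 measured LIF-STAT3 target genes, 8 had lower levels by 2-fold or more and 3 had higher ones, beside 1.91% and 1.86% of all genes. Their median log2 difference was -0.35 beside 0.01 for all genes. In control cells without LIF, against the same control array with LIF, 5 of 23 measured were higher and 5 lower. The shares of all genes in that pair were 7.39% and 6.4%, and the median of the list there was 0.13. Bcl3, a transcriptional coregulator, was at least 8.65-fold lower, at 136.5 in control with LIF and at the floor in Akt without LIF. It stood at 41.8 in control without LIF and 127.8 in Akt with LIF, so only Akt cells without LIF had no level above the floor. Klf4, a Kruppel-like factor of the naive state, was 4.85-fold lower, at 568.2 against 117.0. The kinase gene Pim3 was 2.77-fold lower, Tfcp2l1 2.54-fold, Klf5 2.23-fold, the interferon regulatory factor gene Irf1 2.07-fold and Ier3 2.05-fold. Pim3 and Klf5 had control log2 differences after LIF withdrawal of -0.34 and 0.16, and Irf1 was 2.11-fold higher there. The members higher were the C/EBP genes Cebpb (3.16-fold) and Cebpd (2.1-fold) and the immediate early gene Fos (2.66-fold), all higher still in Akt with LIF, at 296.2, 329.9 and 330.2. In control without LIF they were at 158.3, 101.3 and 284.9, against 54.3, 114.0 and 69.0 in control with LIF.

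Of 14 measured genes of the LIF receptor and JAK-STAT3 pathway, Socs3 and Il6st were lower by 2-fold or more and 0 were higher, which is 14.3% different beside 3.77% of all genes. Il6st, which encodes the shared receptor chain gp130, had intensities of 61.0 in control with LIF, 54.8 in control without LIF, 34.9 in Akt with LIF and 25.4 in Akt without LIF, so both Akt arrays were the low ones. Lifr was at 122.3, 29.0, 137.1 and 64.8 in the same order, a log2 difference of -0.92 for the pair and -2.08 for LIF withdrawal in control cells. Stat3 had a log2 difference of -0.22 and Jak1 of -0.05, and a second probe set of Stat3 gave -1.18. Socs2, another feedback inhibitor, was at 571.5 in control with LIF, 442.1 in Akt without LIF and 196.4 in control without LIF.

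The core pluripotency factors in Akt cells without LIF ranged from near the level of LIF-fed control cells to about the 2-fold limit. Of 9 measured, 1 was at least 2-fold lower (11.1%, beside 3.77% of all genes in either direction). Their median was -0.40. In control cells without LIF 5 of 9 were lower, beside 6.4% of all genes in that pair, with a median of -1.13. That comparison shares the control array with LIF. Pou5f1, which encodes OCT4, was at 491.4 in control with LIF and 452.1 in Akt without LIF, with 263.8 in control without LIF. Utf1, a chromatin-associated target of OCT4 and SOX2, was at 741.1 and 722.9 against 136.5, and Fgf4, the growth factor they induce together, at 402.6 and 481.2 against 78.1. Sox2 was at 2238.9, 1537.6 and 471.9, a log2 difference of -0.54 for the pair. The transcription factor gene Foxd3, at 49.5 in control with LIF and 25.6 in Akt without LIF, was 1.93-fold lower, and Dppa4, at 802.9 and 494.4, was 1.62-fold lower. Nanog was the member past 2-fold, at 1318.5 in control with LIF, 646.5 in Akt without LIF and 696.5 in control without LIF. Its log2 difference of -1.03 and that of -0.72 of its second probe set straddle the 2-fold limit, and it was under 2-fold with the arrays scaled by trimmed means or medians, with these 2 arrays normalized alone, and as the mean of its probe sets.

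The naive and undifferentiated-state genes were split. Of 29 measured, 12 were lower and 0 higher by 2-fold or more, beside 1.91% and 1.86% of all genes. The median was -0.51. In control cells without LIF 21 of 29 were lower, beside 6.4% of all genes in that pair, with a median of -1.84. This list, like the others, was chosen with earlier results of these data known, so both counts are only a description. A first set stood nearly as low in Akt cells without LIF as in control cells without LIF. Dppa3, a maternal factor gene marking naive cells and germ cells, was at 136.3 in control with LIF, 23.9 in Akt without LIF and 22.4 in control without LIF, 5.71-fold lower for the pair. Tcl1, which encodes a coactivator of Akt, was at 103.3, 22.9 and 17.1 (4.51-fold), Klf4 at 568.2, 117.0 and 86.4, and Tfcp2l1 at 312.0, 123.0 and 86.4, although Tfcp2l1 by another probe set gave 0.04 in log2. Of these genes Tcl1, Klf4 and Tfcp2l1 were above control with LIF in Akt with LIF, at 200.4, 619.6 and 750.0, and Dppa3 was below it at 51.4.

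Another set lay between the control levels. Zfp42 (Rex1), a zinc finger gene of undifferentiated cells, was at 1219.1 in control with LIF, 552.8 in Akt without LIF and 82.4 in control without LIF. Fbxo15, an OCT4 and SOX2 target, was at 651.1, 212.5 and 33.2, and the lysine-degrading enzyme gene Aass at 606.2, 287.4 and 34.5. The nuclear receptor genes Nr5a2 and Nr0b1 were at 54.1 and 165.0 in Akt without LIF, against 122.7 and 329.4 with LIF and 18.4 and the floor in control without LIF. Nr0b1 was just short of the 2-fold limit and was not counted. A second probe set of Nr5a2 gave -0.09. Tdgf1, the Nodal coreceptor gene Cripto, was 2.03-fold lower and Slc27a2, a fatty acid transporter gene, 3.63-fold, the latter at 19.8 in Akt with LIF.

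A further set of the same list was close to the level of LIF-fed control cells. Klf2 was at 73.5 in control with LIF, 68.0 in Akt without LIF and at the floor in control without LIF. The glutathione transferase gene Gsta4 was at 510.8, 443.1 and 36.9, Tex19.1 at 191.4, 189.0 and 27.8, and the DNA-binding factor gene Dppa2 at 947.2, 873.4 and 290.9. Alkaline phosphatase Alpl had a log2 difference of -0.21. Klf5 was low only in Akt without LIF, at 248.4 against 554.4, 618.4 and 1000.9 in control with LIF, control without LIF and Akt with LIF. Tbx3 was near the floor in the pair, at 29.0 and 21.2.

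**Figure D3:**
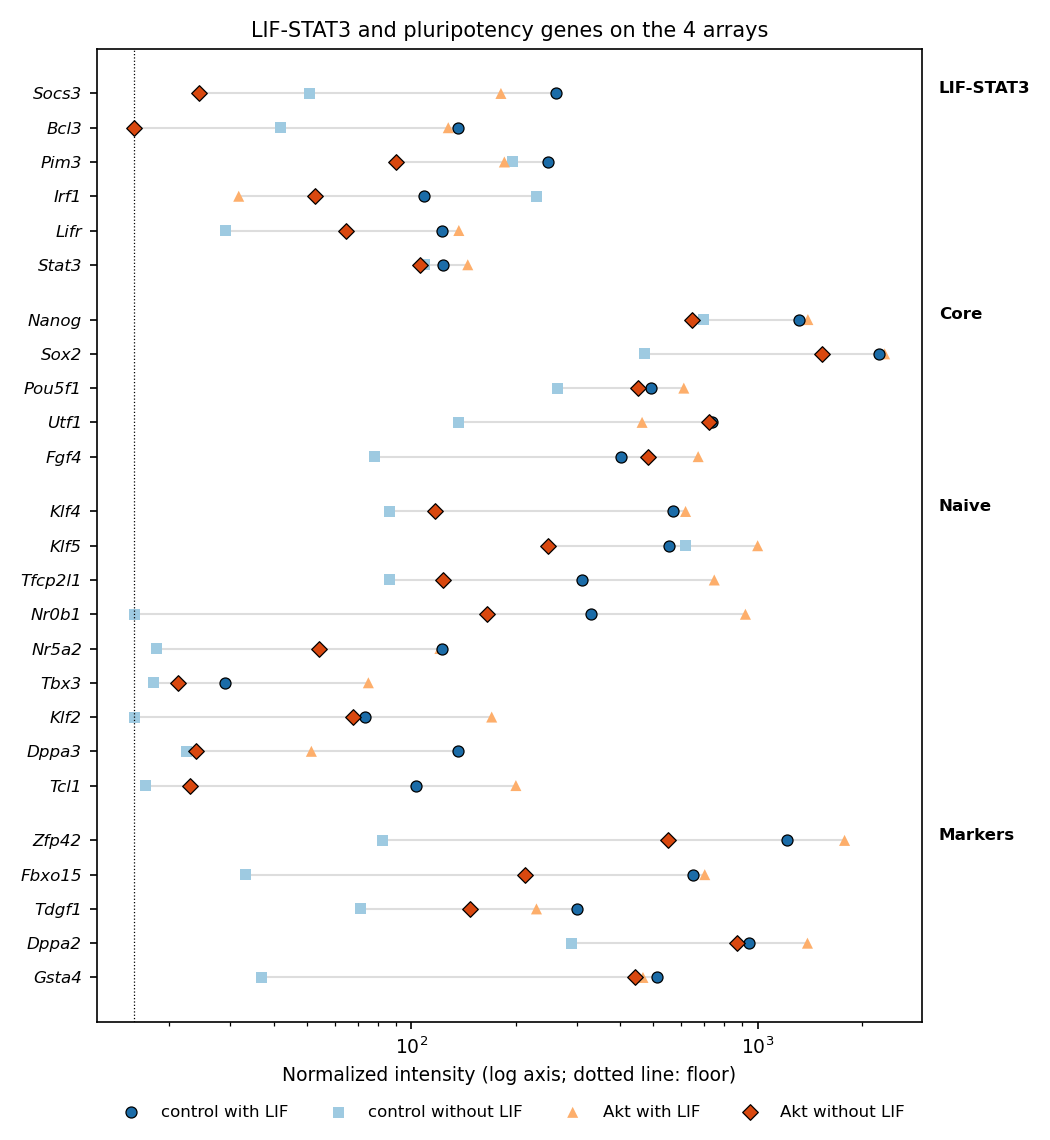
Normalized intensity (log axis) of genes of LIF-STAT3 signalling and pluripotency on the 4 arrays, 1 point per array. Diamonds (Akt without LIF) sit beside the circles (control with LIF) for Pou5f1, Utf1, Klf2, Dppa2 and Gsta4, beside the squares (control without LIF) for Nanog, Dppa3 and Tcl1, and between them for Zfp42, Fbxo15 and Nr5a2.

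Outside those lists, genes that differed at least 2-fold between the control arrays but by under 0.1 in log2 in this pair were taken in order of their mean level over the 4 arrays. First came the G protein gene Gnas (1601.7 in control with LIF, 1510.0 in Akt without LIF, 3406.4 in control without LIF), the ribonucleoprotein gene Nhp2 (1575.5, 1494.3 and 751.4) and the integrin gene Itgb1 (984.5, 973.4 and 2045.2). The RING finger gene Mkrn1 was at 1208.1, 1184.9 and 406.3, and Zfp982 at 1021.9, 965.0 and 485.1. Clic4, Marcksl1 and the taurine transporter gene Slc6a6 followed, each higher in control without LIF (2.69-fold, 2.56-fold and 2.14-fold) and with pair differences of 0.09, 0.06 and 0.04 in log2. Other probe sets did not all stay as close, with 0.36 and -0.46 for Clic4 and -0.62 for Slc6a6. These genes were selected by both pairs, which share the control array with LIF, so their likeness to it is a description.

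Of 20 measured PI3K-Akt pathway components, only Tcl1 was at least 2-fold different, 5% beside 3.77% of all genes, and the median was -0.33. Akt1 was at 77.8 in control with LIF and 71.6 in Akt without LIF. The introduced form is not known, and the probe set may lie outside it, so this does not check the label. Akt2 and the receptor gene Igf1r had log2 differences of -0.84 and -0.99. Of 24 FOXO target genes none was 2-fold different, with a median of -0.12 and a range of -0.78 to 0.80, and with 3.77% of all genes different a count of 0 in 24 is near that share. After LIF withdrawal in control cells 4 of 24 measured were higher and 5 lower, beside 7.39% and 6.4% of all genes in that pair. Txnip and Sod2 had log2 differences of -0.72 and -0.65, with another probe set of Txnip at 0.11. Gadd45g and the cyclin kinase inhibitor gene Cdkn1a had differences of 0.80 and 0.78.

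Primitive and visceral endoderm genes were the list with the most members higher. Of 23 measured, 8 were higher by 2-fold or more and 0 lower, beside 1.86% and 1.91% of all genes, and the median was 0.54. Of the 8, Cubn, Gata4, Sox17 and Pdgfra were at the floor in control with LIF. They counted as measured only through Akt without LIF and could not have been lower. Against the same control array with LIF, control without LIF had 10 of 23 higher and 1 lower, with a median of 0.49. That stood beside 7.39% and 6.4% of all genes. Akt with LIF had 9 of 23 higher and 0 lower, beside 3.5% and 3.64%, with a median of 0.44. The endocytic adaptor gene Dab2 was at 39.7 in control with LIF, 218.3 in control without LIF, 75.4 in Akt with LIF and 282.5 in Akt without LIF, 7.13-fold higher in the pair (limma adjusted p = 0.245), and its other probe sets gave 0.78 and 1.03 in log2. The partner receptor gene Cubn was at the floor in control with LIF, 20.8 in control without LIF, 78.5 in Akt with LIF and 102.8 in Akt without LIF, at least 6.52-fold higher, but another probe set of it gave -0.12. Both Akt arrays were thus the high ones for Cubn, and both arrays without LIF for Dab2. The transcription factor genes Gata4 (at least 3.02-fold) and Sox17 (at least 2.71-fold) and the receptor gene Pdgfra (at least 2.35-fold) were at the floor in control with LIF and at 59.0, 56.2 and 74.4 in Akt with LIF. Another probe set of Pdgfra was above the floor in control with LIF, at 23.6, and gave 0.25 in log2. A second probe set of Sox17 was at the floor on all 4 arrays. The basement membrane collagen genes Col4a1 and Col4a2, which share a promoter region, were 2.53-fold and 2.55-fold higher, and Cited1 2.15-fold.

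Other endoderm genes did not follow. Gata6 was at the floor in control with LIF and at 19.2 in Akt without LIF, Afp was at 19.6 and the floor, and Ttr, Foxa2 and Hnf4a were at the floor on all 4 arrays. Apoe was at 452.8 and 483.8, with 1436.1 in Akt with LIF. Over the 10 primitive endoderm markers, 3 were above the floor in control with LIF and 6 in Akt without LIF, with summed intensities of 80.3 and 459. The other arrays were also above control with LIF, with 4 markers and a sum of 312 in control without LIF and 7 and 360 in Akt with LIF, and Dab2 alone held 282.5 of the 459. In bulk RNA a few cells with a high level and many with a low one give the same value.

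Mesoderm, trophoblast and neural lists had 13.6%, 21.1% and 14.3% of their members 2-fold different, beside 3.77% of all genes. Of 22 primitive streak and mesoderm genes, 3 were lower by 2-fold or more and 0 higher, and the median was 0.24. The lower ones were the smooth muscle genes Tagln (272.9 in control with LIF, 79.6 in Akt without LIF) and Acta2 (210.6 and 69.0) and the ligand gene Bmp4 (242.6 and 85.5). Tagln and Acta2 stood at 20.2 and the floor in Akt with LIF and at 1318.5 and 903.5 in control without LIF, so both Akt arrays were below both control arrays. Wnt3, a primitive streak ligand gene, was at 75.1 and 113.6, Evx1 was at the floor on both arrays, and cardiac actin Actc1 was at 141.0 and 144.0. Of 19 trophoblast and simple epithelial genes, Krt7 (2.64-fold) and Plac1 (2.88-fold) were higher and Anxa3 (2.71-fold) and Sfn (2.31-fold) lower, while Krt8 and Krt18 had log2 differences of 0.11 and 0.32. Cdx2 was at the floor on both arrays. Of 14 neuroectoderm genes, Mapt (2.47-fold) and Pax6 (at least 2.03-fold) were lower and none was higher, and other probe sets of Mapt gave -0.82 and 0.69. Sox1 was just above the floor in Akt without LIF and at it in the control.

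The formative epiblast genes had a median of 0.52 over 12 measured, with Fst, the activin antagonist gene, 2.35-fold higher and the cadherin gene Cdh2 2.46-fold lower. That is 16.7% of the list, beside 3.77% of all genes. The de novo methyltransferase gene Dnmt3a was at 206.3 in control with LIF and 343.1 in Akt without LIF, and Pim2 at 240.8 and 350.0. A second probe set of Pim2 was lower in Akt without LIF, by a log2 value of -1.01. By the probe sets used both genes were lower on the other arrays, Dnmt3a at 36.6 and 127.4 and Pim2 at 60.4 and 60.2 in control without LIF and Akt with LIF. Fgf5 did not exceed the floor on any array. BMP targets had Hes1 2.46-fold higher and Bmp4 lower among 14 measured, with a median of 0.02 that changed sign between scalings. Their share 2-fold different was 14.3%, beside 3.77% of all genes. None of 17 Wnt pathway genes was 2-fold different, and with 3.77% of all genes different a count of 0 in 17 is near that share. Wls and Wnt6, at 517.4 and 311.3 in control without LIF, were at 34.2 and 25.8 in Akt without LIF beside 49.7 and 19.9 in control with LIF.

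Imprinted genes were at least 2-fold higher in 4 of 18 cases and lower in 0, beside 1.86% and 1.91% of all genes, with a median of 0.42. The growth factor gene Igf2 was at 254.2 in control with LIF, 988.9 in control without LIF, 930.1 in Akt with LIF and 1442.2 in Akt without LIF, 5.67-fold higher in the pair, with the control with LIF the lowest array by a wide gap. A second probe set of Igf2 was at the floor on all 4 arrays. The cyclin kinase inhibitor gene Cdkn1c was at 764.8, 1282.0, 1494.3 and 2465.6 in the same order, 3.22-fold higher. Sgce was 2.47-fold and the retrotransposon-derived gene Peg10 2.17-fold higher. Peg3 and Mest, at 1833.0 and 498.5 in control without LIF, had pair differences of 0.58 and 0.49.

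Interferon-inducible and antigen presentation genes were at least 2-fold lower in 6 of 15 cases and higher in 0, beside 1.91% and 1.86% of all genes, with a median of -0.29. The guanylate-binding protein genes Gbp2b, Gbp2 and Gbp3 were at 82.5, 71.7 and 36.5 in control with LIF and at the floor on both Akt arrays, while control cells without LIF had 662.1, 518.0 and 269.2. The related genes Gbp2b and Gbp2 may share signal on these probe sets, which was not tested. Irgm1 was 2.8-fold and the immunoproteasome gene Psmb8 at least 2.63-fold lower. Gbp2b, Gbp2, Gbp3 and Psmb8 counted as measured only through control with LIF and could not have been higher. The class I genes H2-K1 and H2-D1 had log2 differences of 0.35 and 0.41, and Tap1 of 0.98, and other probe sets of H2-K1 gave -0.23 and -0.26.

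**Figure D4:**
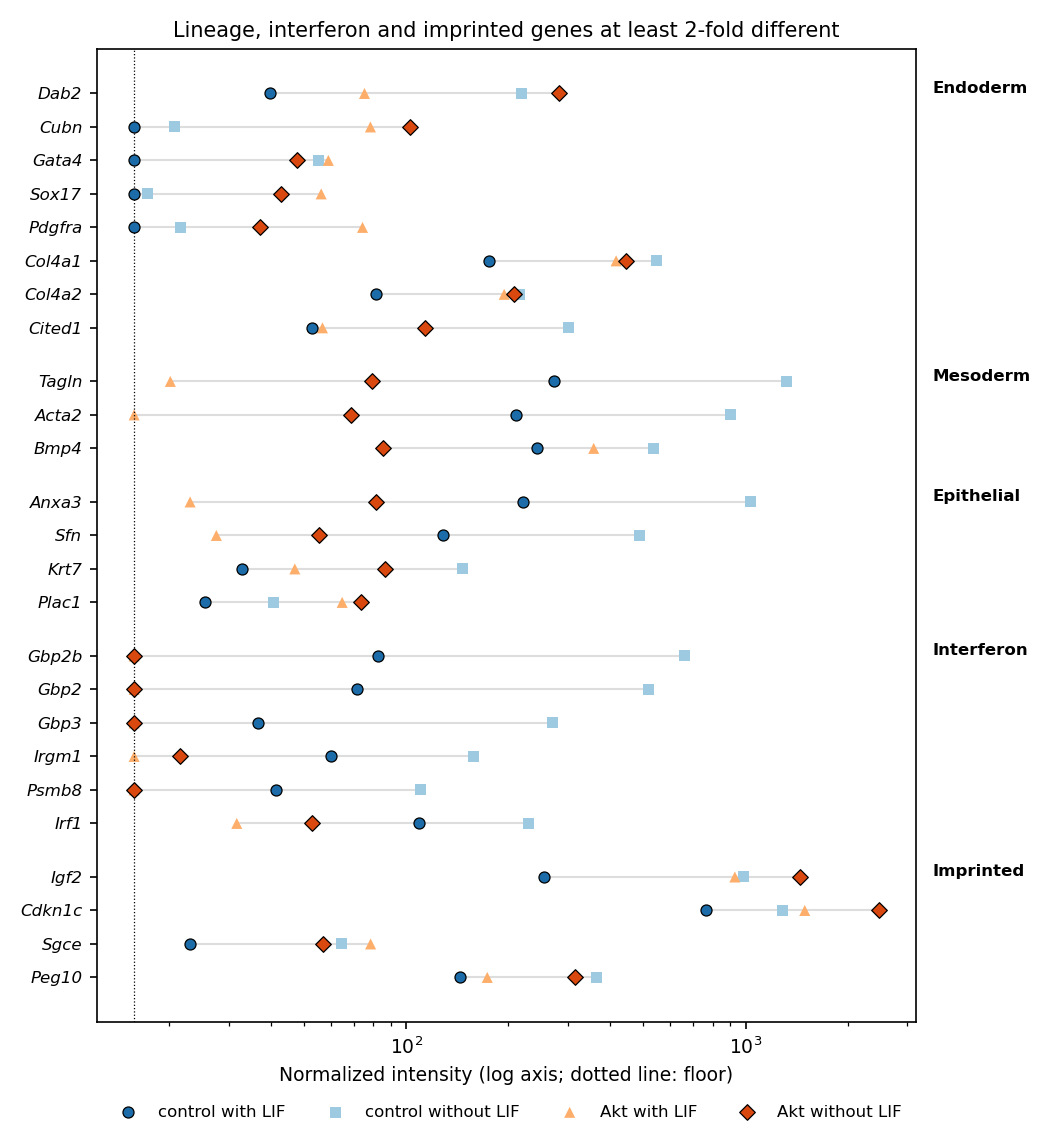
Normalized intensity (log axis) on the 4 arrays of lineage, interferon and imprinted genes at least 2-fold different between control with LIF and Akt without LIF, 1 point per array. Gbp2b, Gbp2 and Gbp3 lie on the floor in both Akt arrays, and Igf2 and Cdkn1c are lowest in control with LIF and highest in Akt without LIF.

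The share of members 2-fold different was 13.3% for metallothionein and detoxification genes, 7.41% for ATF4 and stress response genes, 15.8% for glycolysis genes and 13.6% for sterol and fatty acid genes, beside 3.77% of all genes. Of 30 metallothionein and detoxification genes, 3 were higher and 1 lower. The metallothionein gene Mt1, which encodes a zinc-binding protein, was at 646.5 in control with LIF, 50.9 in control without LIF, 2519.0 in Akt with LIF and 2172.1 in Akt without LIF, 3.36-fold higher in the pair. Mt2 was at 1684.5, 283.9, 3171.2 and 3003.6, so for both genes the Akt arrays were highest and the control without LIF lowest. The quinone reductase gene Nqo1 (2.22-fold) and heme oxygenase gene Hmox1 (2.02-fold) were higher, and Gstm3 was 2.79-fold lower although its other probe set gave 0.29, and a second probe set of Nqo1 gave 0.58. Of 27 ATF4 and stress response genes, Cebpb and the mTOR inhibitor gene Ddit4 (3.27-fold) were higher and none lower, and the median of 0.06 changed sign between settings. Atf5, Trib3 and Nupr1, at 251.6, 182.3 and 252.2 in Akt with LIF, were at 35.3, 27.5 and 19.5 in Akt without LIF and at 33.9, 30.3 and the floor in control with LIF.

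Of 19 glycolysis genes, 3 were lower, the phosphofructokinase gene Pfkp (2.92-fold), hexokinase Hk2 (2.07-fold) and Ldhb (2.04-fold), while Pkm, Ldha and Pgk1 had log2 differences of 0.01, 0.08 and 0.24. Of 22 sterol and fatty acid genes, the desaturase gene Scd1 was 2.48-fold higher and the citrate lyase gene Acly (2.58-fold) and the cholesterol exporter gene Abca1 (3.45-fold) were lower, with a median of 0.30 and second probe sets of Abca1 at -0.10 and of Scd1 at 0.88. Of 36 matrix and adhesion genes, Col4a1, Col4a2 and the hyaluronan synthase gene Has2 (2.35-fold) were higher and Cdh2 and Ccn1 (2.12-fold) lower. That is 13.9% of them, beside 3.77% of all genes. Tgfb1, at 329.3 in control without LIF, was just above the floor in control with LIF and at it in Akt without LIF. Among 43 cell cycle genes only Cdkn1c was 2-fold different, which is 2.33% and near the 3.77% of all genes. The median of -0.08 crossed 0 in some settings. Ccnd1 was at 153.8 and 173.6, Myc at 105.0 and 81.4 and Mycn at 858.3 and 465.0. None of 20 ribosomal protein genes differed 2-fold, with values from -0.25 to 0.52, and 0 in 20 is near the 3.77% of all genes. Fibroblast and feeder markers had 1 of 13 members different, 7.69% beside 3.77% of all genes. This was Fbln1, 2.01-fold higher, with other probe sets at 0.30 and 0.49. The 21 markers of that cell type summed to 927 in control with LIF and 1061 in Akt without LIF.

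**Figure D5:**
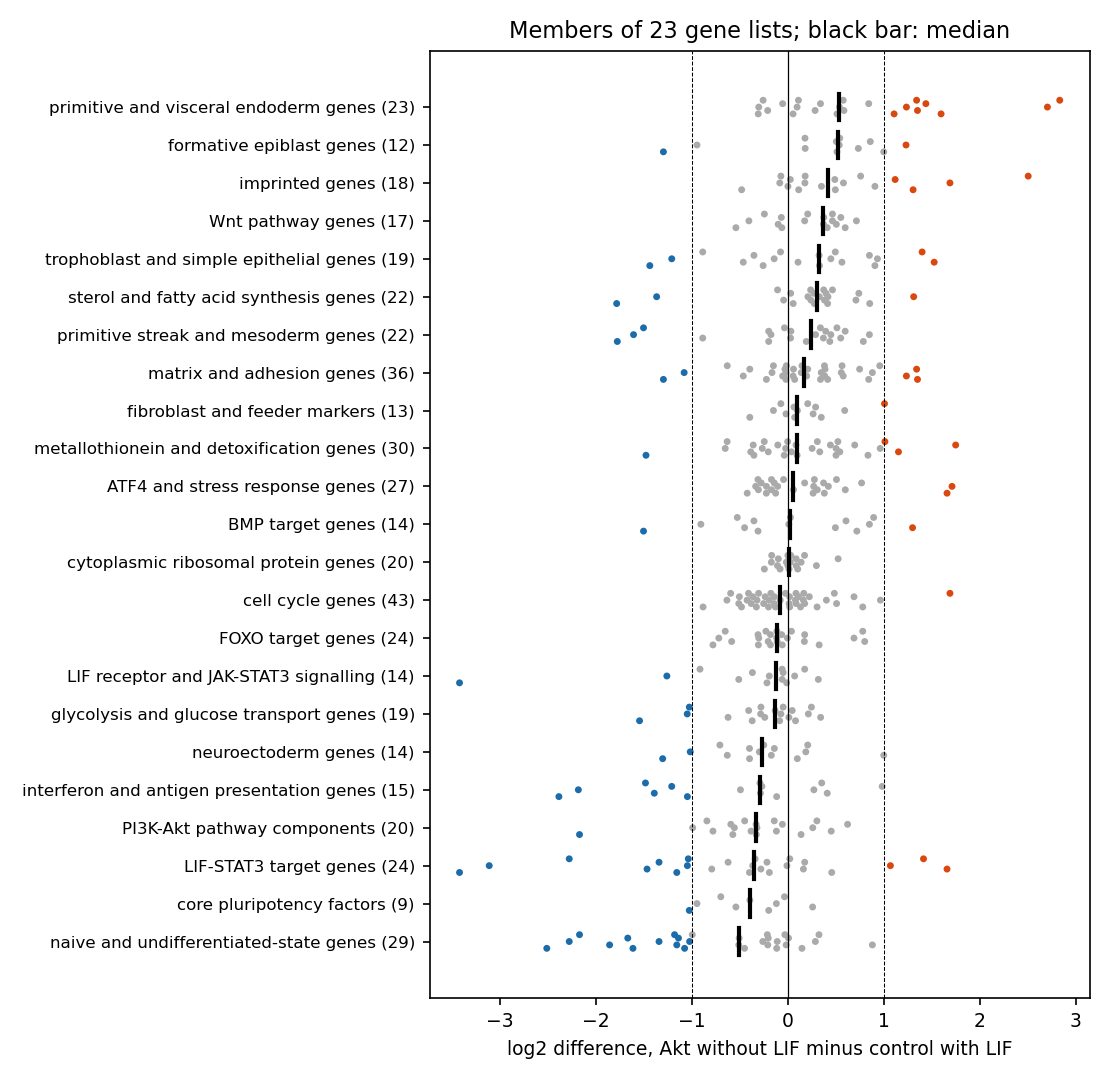
Log2 difference of each measured member of 23 gene lists, with the number measured in brackets; colours mark members at least 2-fold higher (red) or lower (blue), black bars the medians and dashed lines 2-fold. Naive and undifferentiated-state genes have the lowest median (-0.51) and primitive and visceral endoderm genes the highest (0.54).

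Among all genes above the floor on both arrays, the most different upward after Dab2 and Igf2 were the homeobox gene Irx3 (5.58-fold, 21.6 against 120.6), the elongation factor gene Eef1a2 (5.23-fold), Apobec2 (4.28-fold), the gluconeogenic enzyme gene Fbp1 (4.18-fold), Mt1, Ddit4, Cdkn1c, Cebpb, the carboxypeptidase inhibitor gene Lxn (3.08-fold) and Rln1 (3.06-fold). A second probe set of Apobec2 gave -0.01. Irx3, Eef1a2 and Apobec2 were lowest in control with LIF and highest in Akt without LIF, with Akt with LIF the next highest. Downward, after Socs3, Dppa3, Klf4 and Tcl1, they were the adaptor gene Tradd (4.17-fold), the calcium-binding protein gene S100a6 (3.88-fold), the kinase gene Mknk1 (3.75-fold), the RNA-binding protein gene Elavl2 (3.72-fold), Slc27a2, the stem cell factor receptor gene Kit (3.57-fold), calponin Cnn2 (3.46-fold) and Abca1. Tradd was low only in Akt without LIF, at 28.5 against 119.2 to 130.2 on the other arrays. S100a6 and Cnn2 were low on both Akt arrays, at 387.0 and 285.3 and at 60.6 and 88.8, against 1107.3 and 307.3 in control with LIF.

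Genes with only a bound extended both ends. At the floor in control with LIF were, after Cubn, Chrne (at least 4.02-fold higher), Olfr2 (3.94-fold), Cyp2c39 (3.78-fold), the muscle fructose bisphosphatase gene Fbp2 (3.55-fold), Galr2 (3.45-fold), Gnb4 (3.38-fold) and Ampd3 (3.32-fold), all as lower bounds. At the floor in Akt without LIF were, after Bcl3, the Y-linked initiation factor gene Eif2s3y (at least 8.53-fold lower), Nexmif (5.83-fold), the membrane protein gene Emp1 (5.76-fold), Gbp2b (5.23-fold), lymphotoxin Ltb (5.19-fold), B3gnt2 (4.7-fold) and Gbp2 (4.55-fold). Nexmif, Ltb, Gbp2b and Gbp2 were also at the floor in Akt with LIF, whereas Bcl3, Emp1 and B3gnt2 were at 127.8, 57.0 and 76.8 there. A second probe set of B3gnt2 gave 0.14. Other probe sets of Chrne were at the floor on all 4 arrays.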

How the data were processed

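Total RNA from mouse embryonic stem cells was measured on 4 Affymetrix arrays, 1 per group, and the groups were taken from the sample titles. The deposited values are linear intensities, 1 per probe set, and which software or scaling the authors used was not given in the sources used here. Members and lists were chosen with earlier results of these data known. Because the 2% trimmed means differed by up to 1.51 times, the 12422 non-control probe sets were brought to a common distribution by quantile normalization (limma 3.58.1, R 4.3.3), values under the 40th percentile (15.8) were set to it, and log2 was taken. A shift common to most genes of 1 array would be removed by this. Of the 12422, 10833 had 1 gene symbol, 396 several and 1193 none in the platform annotation. Symbols were updated by gene identifier in the RefSeq table of GRCm38.p6, which held 10817 of the 10833. For each of 8251 genes the probe set of highest mean log2 intensity stood for the gene. Where measured probe sets of a named gene differed in sign or in their side of the 2-fold limit, the other values are given beside the gene, except for Mkrn1, whose probe sets all lay near 0. Probe sets at the floor on both arrays of the pair were not measured, and most of them are not mentioned. The limma fit (lmFit and eBayes, two-sided, Benjamini-Hochberg) used line and LIF as additive terms. The limma fit and the 2-fold count were tested on simulated log2 values of genes, which did not pass through the normalization. Named genes were the 12 most different each way above the floor on both arrays, the 8 largest bounds each way, list members and a fixed set of stem cell genes. With 1 array a group, the number of arrays limits precision.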

Additional observations from a re-analysis of the deposited data

How the results depend on the processing

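No paired analysis was possible because each group holds 1 array. The counts of genes at least 2-fold higher and lower, 110 and 113, were within 1.5 times of these under scaling by trimmed means, hybridization controls or medians, normalization of the 2 arrays alone, the mean of all probe sets and plain _at probe sets only. They were 359 and 358 with the floor at the 20th percentile, 37 and 53 with it at the 60th, 60 and 74 with a pseudocount of 16 in place of the floor, and 33 and 681 on the values as deposited, where the median of all genes shifted by -0.54. Among the genes 2-fold different, the share that was higher was 49.3% as reported and 4.62% as deposited. Limma called 10 genes with the pseudocount (Bcl3, Cubn, Dab2, Eif2s3y, Gbp2, Gbp2b, Igf2, Klf4, Ltb and Socs3) and 7 on genes above the floor on all 4 arrays, and 0 under each other alternative run. The median of LIF-STAT3 targets was -0.45 scaled to hybridization controls. That of core factors was -0.20 both with the floor at the 60th percentile and with plain _at probe sets, and that of naive genes was -0.39 with that floor and -0.61 scaled to hybridization controls. No list with a median of 0.1 or more in size changed sign in any alternative run, values as deposited being taken relative to their shift. Of 89 named genes at least 2-fold different, 51 of the 81 still measured stayed past 2-fold with the floor at the 60th percentile, 71 with the mean of all probe sets and 82 as deposited. With plain _at probe sets only, Cubn was at -0.12 and Apobec2 at -0.0091 and so changed sign. Except where an alternative tests other genes or uses other probe sets, the cause was not tested.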

Other observations

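Genes of the contractile cytoskeleton were put together after their values were seen and are only described. Of 12 measured, 5 were at least 2-fold lower in Akt without LIF than in control with LIF and 0 were higher. Over all genes the shares were 1.91% and 1.86%, but these 12 were picked with values known. Besides Tagln, Acta2 and Cnn2 these were the myosin light chain gene Myl9, at 65.5 in control with LIF and 138.8 in control without LIF, and Cnn1, at 38.2 and 64.7. On both Akt arrays Myl9 and Cnn1 did not exceed the floor, at least 4.15-fold and 2.42-fold lower. Tpm1 was at 556.7 in control with LIF, 1814.5 in control without LIF, 146.2 in Akt with LIF and 306.6 in Akt without LIF, and vinculin Vcl at 616.4, 1494.3, 335.9 and 383.6. The other actin genes were closer to control with LIF, with log2 differences of -0.18 for Acta1, 0.03 for Actc1 and -0.34 for Actg2. Tpm2 and Cnn3 had differences of 0.23 and -0.32, and Tpm2 was higher than in control with LIF on both Akt arrays.

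Eif2s3y and Uty, both on the Y chromosome, were looked at after the value of Eif2s3y was seen. Eif2s3y was at 134.6 in control with LIF and 84.1 in control without LIF, against 16.5 in Akt with LIF and the floor in Akt without LIF. Uty was at 37.1 in control with LIF and at the floor on the other arrays, and Uba1y was at 25.1 in control with LIF and 16.2 in Akt without LIF. Kdm5d and Sry were at the floor on all 4 arrays and could not show a difference. Over the 20 other chromosomes the median log2 difference of genes above the floor on all 4 arrays ranged from -0.09 to 0.06.

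Of 1589 probe sets with no single gene symbol, 782 were above the floor on either array, and 16 were at least 2-fold higher and 21 lower, 4.73% of the 782.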
